A study of Mus musculus with 4 samples.

Results

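The genes described here belong to the piRNA pathway and to the germ granules in which it works. They were chosen by name, 31 genes of the 30828 listed in the matrices, and all 31 were found by symbol. They comprise 3 PIWI proteins, 3 helicases, 4 biogenesis enzymes, 9 Tudor domain proteins, 5 granule and scaffold proteins, 3 transposon silencing genes, 2 subunits of the arginine methylation complex and 2 regulators, *Dnd1* and *Mybl1*.

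Testes of mouse pups at postnatal day 8 were dissociated, sorted for CD9 and THY1, and profiled with droplet libraries that tag the 3′ end of each polyadenylated transcript. Cnot3-cKO pups were *Cnot3* flox/flox; *Ddx4*-creER, and control pups were *Cnot3* flox/flox without the Cre transgene, although GEO's genotype field calls them wild-type. Pups of both genotypes received 4-hydroxytamoxifen (4-OHT) from postnatal day 1. Labels list 4 samples, 2 per genotype, but the counts of each genotype were merged into 1 matrix, so that no replicate spread can be had and no test was made. Intervals printed here are 95% intervals that cover counting error only. The Cre driver uses the promoter of *Ddx4*, itself 1 of the 31 genes, and recombines in germ cells, so that somatic cells of the Cnot3-cKO testes keep *Cnot3*. Whether the samples of a genotype were separate animals or repeat runs of 1 library is not given in the sources used here.

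piRNAs are small RNAs of germ cells that guide PIWI proteins to transposon transcripts. Long precursors are unwound, cut at the outer face of mitochondria, loaded into a PIWI protein, trimmed and methylated at the 3′ end. Tudor domain proteins bind methylated arginines of the PIWI proteins and gather these steps in granules known in spermatogonia as intermitochondrial cement. In the mouse testis, PIWIL4 acts in fetal and newborn germ cells, and PIWIL1 acts from the pachytene stage of meiosis.

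Barcodes with at least 5 unique molecular identifiers (UMIs) of *Dazl*, an RNA-binding protein gene of germ cells, were taken as germ barcodes. There were 1339 in control, with 57057648 UMIs and a median of 42337 per barcode, and 556 in Cnot3-cKO, with 25935601 UMIs and a median of 46451.5. They were split by stage markers into a *Meioc* class (246 control and 91 Cnot3-cKO barcodes), a *Kit* class (374 and 130), a *Neurog3* class (109 and 10), a *Gfra1* class (202 and 167) and barcodes without a stage marker (408 and 158). *Gfra1* marks stem cells, *Neurog3* progenitors, *Kit* differentiating spermatogonia and *Meioc* cells nearing meiosis. The targeted gene *Cnot3* was at 71.2 counts per 1000000 UMIs (CPM) in germ barcodes of control and at 39.6 in those of Cnot3-cKO (log2 ratio -0.85, -0.95 to -0.75), while Sertoli barcodes gave 63.7 and 67.9. The counted 3′ tags may lie outside the deleted part of the gene, which was not tested.

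Promoter windows of RefSeq (build GRCm38.p6), running from 250 bases before to 50 after the transcript start, were found for 23 of the 31 genes. The letters CACGTG, an E-box that reads the same on both strands, were present in 11 of the 23 (47.8%). Over all 27025 genes with a window the share was 8.09%, and over the 12388 genes with at least 10 CpG in a window it was 12.3%. All 23 members reached 10 CpG. The carriers were *Ddx25*, *Ddx4*, *Fkbp6*, *Mael*, *Mov10l1*, *Piwil1*, *Pld6*, *Stk31*, *Tdrd1*, *Tdrd9* and *Wdr77*. The stretches around the E-box nearest to the transcript start are shown for 8 of the 9 carriers in which it lies at least 15 bases inside the window, because the letters recur in genes on different chromosomes. They are written 5′ to 3′ on the gene's strand, with the E-box in capitals.
Ddx4 (chr13:112652319-112652354, minus strand): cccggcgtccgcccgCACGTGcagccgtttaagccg
Tdrd1 (chr19:56826183-56826218, plus strand): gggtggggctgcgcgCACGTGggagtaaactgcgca
Pld6 (chr11:59787670-59787705, minus strand): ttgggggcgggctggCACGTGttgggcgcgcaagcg
Fkbp6 (chr5:135350061-135350096, minus strand): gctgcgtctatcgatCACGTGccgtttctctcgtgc
Stk31 (chr6:49395469-49395504, plus strand): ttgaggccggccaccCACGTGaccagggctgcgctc
Piwil1 (chr5:128736077-128736112, plus strand): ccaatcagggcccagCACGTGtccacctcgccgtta
Mael (chr1:166238947-166238982, minus strand): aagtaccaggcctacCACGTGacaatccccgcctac
Wdr77 (chr3:105959492-105959527, plus strand): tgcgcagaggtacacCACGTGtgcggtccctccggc

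Among those 9 carriers, the distance from the first base of the E-box to the start ranged from 223 bases upstream in *Mael* to 9 bases downstream in *Wdr77*. The letters CGCATGCG, the core of an NRF1 site, were in 4 of the 23 windows (17.4%), those of *Gpat2*, *Mov10l1*, *Stk31* and *Tex19.1*, against 2.07% of all genes and 4.29% of the CpG-rich ones. The letters TAACNG of a MYB site, searched on both strands, were in 7 (30.4%), against 25.9% and 21.7%. Such matches describe letters only. Among members with at least 100 UMIs over both genotypes, *Gtsf1*, *Prmt5* and *Tex19.1* had the highest ratios between genotypes. They had no E-box in their windows. The windows of *Gtsf1*, with none of the 3 motifs searched, and of *Tex19.1*, with the CGCATGCG letters in capitals, are shown for comparison.
Gtsf1 (chr15:103430378-103430677, minus strand): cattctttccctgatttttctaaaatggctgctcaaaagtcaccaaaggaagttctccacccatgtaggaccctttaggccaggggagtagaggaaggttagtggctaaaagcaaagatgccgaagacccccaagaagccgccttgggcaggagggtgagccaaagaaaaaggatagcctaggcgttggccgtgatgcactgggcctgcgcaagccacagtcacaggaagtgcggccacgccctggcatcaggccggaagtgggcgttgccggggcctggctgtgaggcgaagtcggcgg
Tex19.1 (chr11:121145893-121146192, plus strand): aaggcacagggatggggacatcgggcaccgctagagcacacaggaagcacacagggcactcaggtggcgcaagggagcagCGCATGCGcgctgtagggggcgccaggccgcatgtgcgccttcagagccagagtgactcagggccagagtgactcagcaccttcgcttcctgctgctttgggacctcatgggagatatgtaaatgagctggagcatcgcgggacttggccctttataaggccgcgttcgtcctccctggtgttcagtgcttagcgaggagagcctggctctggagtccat

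The 31 genes differed widely in level. Each molecule is counted once from its 3′ end, so levels in CPM were not divided by transcript length. *Fkbp6*, a chaperone partner of the pathway, was highest, at 475 CPM (469 to 480) in control germ barcodes and 493 (485 to 502) in Cnot3-cKO. *Tex15*, *Mael*, *Ddx4*, *Tex19.1*, *Mov10l1* and *Stk31* followed, between 214 and 318 in control. *Mybl1*, a transcription factor of meiotic piRNA loci, was at 2.37 and 2.81. *Tdrd6*, a Tudor protein of later germ cells, was counted 9 times in control germ barcodes and 17 times in those of Cnot3-cKO and was the only member under the minimum of 100 UMIs over both, which left 30.

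**Figure D1:**
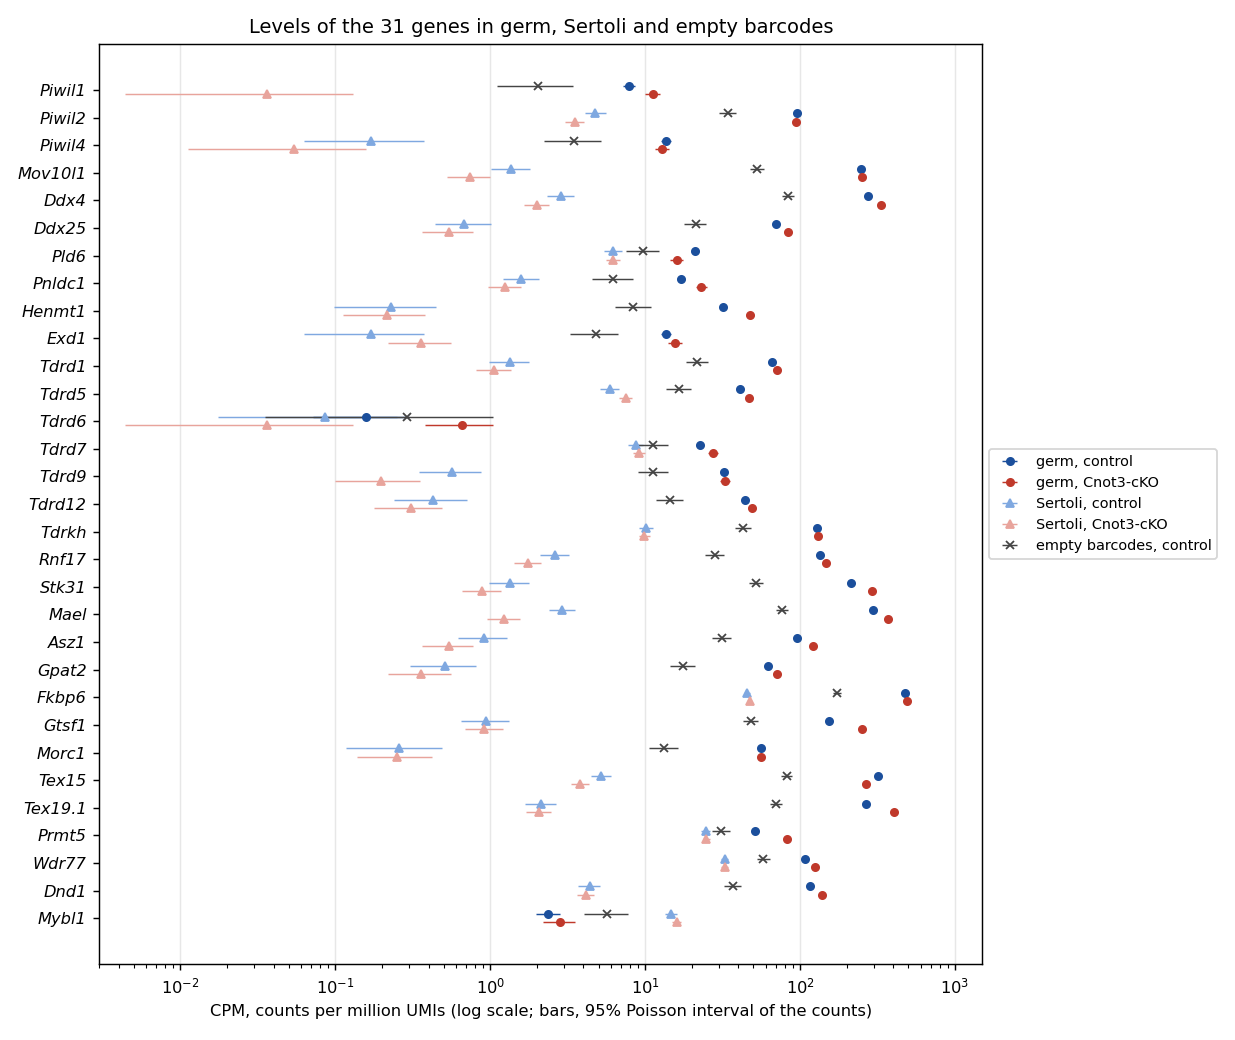
Level of each gene in CPM (log axis) in germ, Sertoli and empty barcodes, with 95% Poisson intervals. *Fkbp6* is highest at 475 in control germ barcodes, *Mybl1* lies higher in Sertoli than in germ barcodes, and a gene with 0 UMIs in a class has no point there.

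The comparison of Cnot3-cKO with control asks whether loss of *Cnot3*, a subunit of the CCR4-NOT deadenylase, goes with another level of these transcripts. Summed over the 31 genes, control germ barcodes held 3477 CPM and Cnot3-cKO ones 4070 (log2 ratio 0.23, 0.22 to 0.24). Of the 30 genes past the minimum, 25 had a ratio above 0 and 5 below 0. The median log2 ratio was 0.21, against 0.02 for all 13337 genes tested, of which 51.9% were above 0. With a mitochondrial limit of 10% in place of 20%, the member median was 0.31. At 1.5-fold, 3 of 30 were higher, where the background was 6.53% of genes, and 0 of 30 were lower, where it was 3.34%. A count of 3 (10.0%) is near that background. Among genes at least 4-fold higher in germ than in Sertoli barcodes, a comparison added after the values were seen, 21 of 25 members (84.0%) and 53.2% of 2184 other genes were above 0, with medians of 0.20 and 0.03. Fewer cells of a stage and less RNA per cell cannot be told apart in such sums, and the classes were present in other shares in each genotype.

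The shares of the classes were therefore held equal. Weighting the *Meioc*, *Kit*, *Gfra1* and unmarked classes by their control shares gave a member median of 0.18, against 0.01 for all genes, with 3 of 30 higher by 1.5-fold (background 5.5%) and 0 lower (3.16%). The 3 were *Gtsf1*, *Henmt1* and *Prmt5*, and *Tex19.1* fell short of 1.5-fold. The *Neurog3* class was left out, having 10 barcodes in Cnot3-cKO. Stage within a class was not equal, since the stem cell markers of the *Kit* class summed to 34.6 CPM for control against 115 for Cnot3-cKO, and its differentiating markers to 674 and 455. In the weighted ratios *Gfra1* itself was still at 0.58 and *Neurog3* at -1.62. Over both matrices most members had a lower level in the *Kit* than in the *Gfra1* class, and the part of this difference in the weighted ratios was not tested. With the filters stated in the study, the class without a marker was the only one with enough barcodes to be weighted, and there 5 of 21 were higher (background 8.52%) and 1 lower (5.63%), *Morc1*, at -0.66. Within the 4 classes, 15 of the 28 members past the minimum in each had a ratio above 0 in each (53.6%), against 26.0% of all 9119 such genes, and *Tex15* alone was below 0 in each (3.57% against 21.9%). The share past 1.5-fold higher was 3 of 29 in the *Gfra1* class (background 7.65%), 5 of 29 in the *Kit* class (5.12%), 1 of 28 in the *Meioc* class (2.28%) and 4 of 29 without a stage marker (5.56%). No member was lower by 1.5-fold in any of them, with 0 of 29, 29, 28 and 29 (background 3.41%, 2.35%, 4.81% and 7.38%). In the 10 Cnot3-cKO barcodes of the *Neurog3* class, 3 of 28 were higher (8.31%), *Henmt1*, *Mael* and *Gpat2*, and 0 lower (10.2%).

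**Figure D2:**
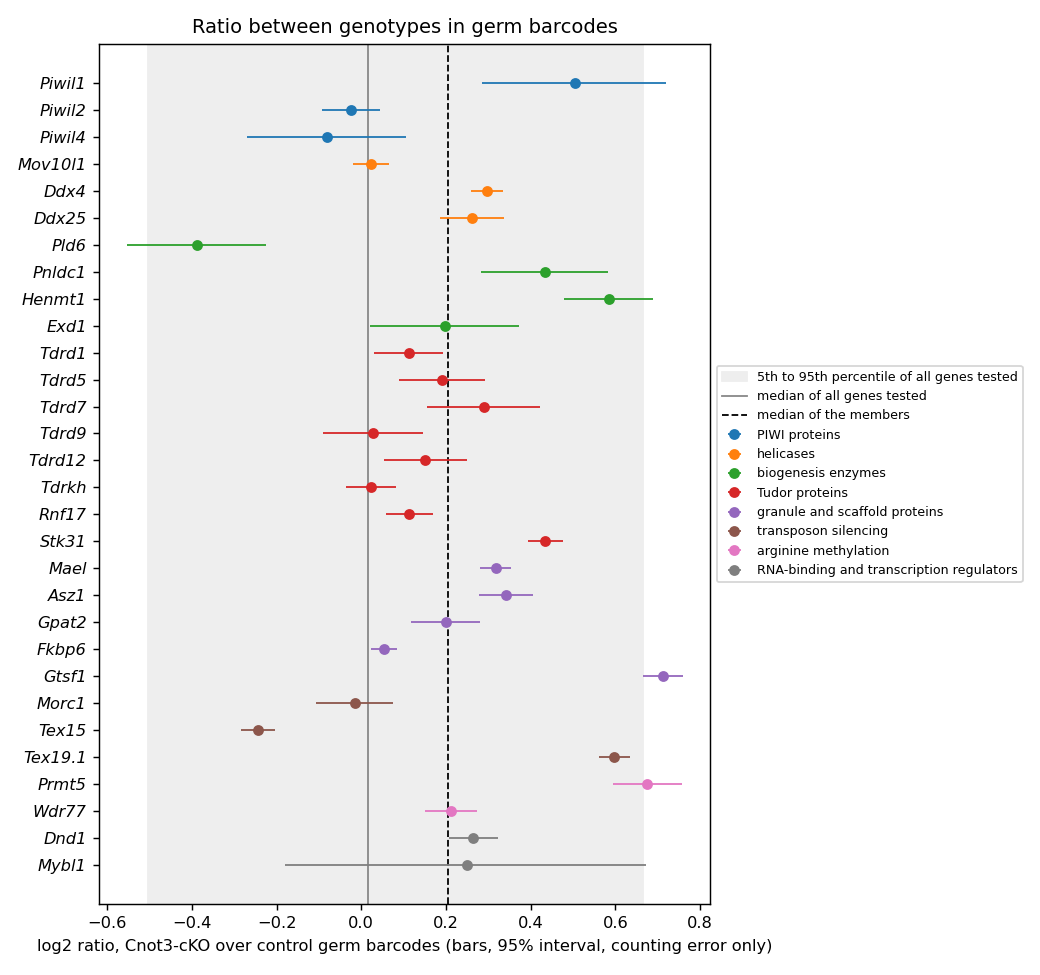
Log2 ratio of Cnot3-cKO over control germ barcodes for the 30 genes past the minimum, colored by role, with 95% intervals for counting error. Most points lie right of the median of all genes at 0.02, *Gtsf1* is farthest right at 0.71, and *Pld6* is farthest left at -0.39.

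Among the PIWI proteins, *Piwil2* was the most abundant, with 95.9 CPM in control and 94.3 CPM after the deletion (log2 ratio -0.02, -0.09 to 0.05). *Piwil4*, which carries piRNAs to the nucleus, was at 13.6 and 12.9 (-0.08, -0.27 to 0.11). *Piwil1* was at 7.89 and 11.2 (0.50, 0.29 to 0.72). All 3 ratios are under 1.5-fold, and *Piwil1*, the PIWI protein of meiosis, was the least abundant of the 3.

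The helicases stood at similar or slightly higher levels in Cnot3-cKO. *Mov10l1*, which unwinds piRNA precursors, was at 248 and 252 (0.02, -0.02 to 0.07). *Ddx4*, the mouse vasa helicase of germ granules, was at 273 and 335 (0.30, 0.26 to 0.34), and *Ddx25* at 70.0 and 83.9 (0.26, 0.19 to 0.34). Among genes past the minimum, the biogenesis enzymes spread more than any other group. *Henmt1*, which methylates the 3′ ends of piRNAs, was at 31.7 and 47.5 (0.58, 0.48 to 0.69), just short of 1.5-fold and past it without Scrublet doublets, and *Pnldc1*, which trims these ends, at 17.0 and 23.0 (0.43, 0.28 to 0.58). *Exd1* was at 13.6 and 15.6 (0.20, 0.02 to 0.37). *Pld6*, the mitochondrial enzyme linked to precursor cleavage, was lower, at 20.9 and 16.0 (-0.39, -0.55 to -0.23).

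The 8 Tudor genes past the minimum all had ratios above 0, from 0.02 in *Tdrkh* to 0.43 in *Stk31*. *Stk31* was at 214 and 290 CPM (interval of the ratio 0.39 to 0.48) and *Tdrd7* at 22.5 and 27.5 (0.29, 0.15 to 0.42). *Tdrd5* was at 41.2 and 47.1 (0.19), *Tdrd12* at 44.2 and 49.1 (0.15), *Tdrd1* at 66.0 and 71.4 (0.11) and *Rnf17* at 135 and 147 (0.11). *Tdrd9*, with 32.2 and 32.8 (0.03), and *Tdrkh*, with 129 and 132 (0.02), were nearest to 0.

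Of genes past the minimum, the granule and scaffold group held the highest ratio, that of *Gtsf1*. This gene lies on chromosome 15 (103402405 to 103430470 in GRCm38, minus strand). *Gtsf1*, a zinc finger partner of PIWI proteins, was at 153 (150 to 157) and 251 (245 to 257) CPM, a log2 ratio of 0.71 (0.67 to 0.76). *Asz1* was at 95.6 and 121 (0.34), *Mael* at 298 and 371 (0.32) and *Gpat2* at 62.0 and 71.1 (0.20), with *Fkbp6* at 0.05. All 5 lay above 0. In the arginine methylation complex, *Prmt5*, the methyltransferase (chromosome 14, 54507187 to 54517525, minus strand), was at 51.2 (49.4 to 53.1) and 81.9 (78.4 to 85.4), a ratio of 0.68 (0.59 to 0.76) that was 0.53 with the filters stated in the study, under 1.5-fold, and its cofactor *Wdr77* at 107 and 124 (0.21, 0.15 to 0.27).

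The transposon silencing genes went apart. *Tex19.1* (chromosome 11, 121146143 to 121148319, plus strand) was at 266 (261 to 270) and 402 (394 to 410) CPM, a log2 ratio of 0.60 (0.56 to 0.63). *Tex15*, a nuclear partner of PIWIL4, was at 318 and 268 (-0.24, -0.28 to -0.20), and *Morc1* at 56.2 and 55.6 (-0.02, -0.11 to 0.07). *Dnd1*, an RNA-binding protein needed for germ cell survival, was at 116 and 139 (0.26, 0.21 to 0.32), and *Mybl1* gave 0.25 with a wide interval (-0.18 to 0.67).

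The log2 ratio of *Prmt5* was 0.80 in the *Gfra1* class, 0.78 without a marker, 0.64 in the *Kit* class and 0.65 in the *Meioc* class. *Tex19.1* gave 0.61, 0.74, 0.34 and 0.28 in the same order, and *Gtsf1* 0.56, 0.82, 0.70 and 0.37. *Henmt1* gave 0.63, 0.60, 0.81 and 0.40. Of these 4 classes, the *Meioc* class gave the lowest value for *Tex19.1*, *Gtsf1* and *Henmt1*. In the *Neurog3* class, with its 10 Cnot3-cKO barcodes, *Prmt5* was at 0.24 (-0.27 to 0.71), *Tex19.1* at 0.13, *Gtsf1* at 0.55 and *Henmt1* at 0.96. *Cnot3* itself was at -1.01, -1.07, -0.73 and -0.51. *Pld6* was at -0.06, -0.52, -0.38 and 0.14, and so not lower in every class. *Tex15* was at -0.25, -0.31, -0.24 and -0.13.

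**Figure D3:**
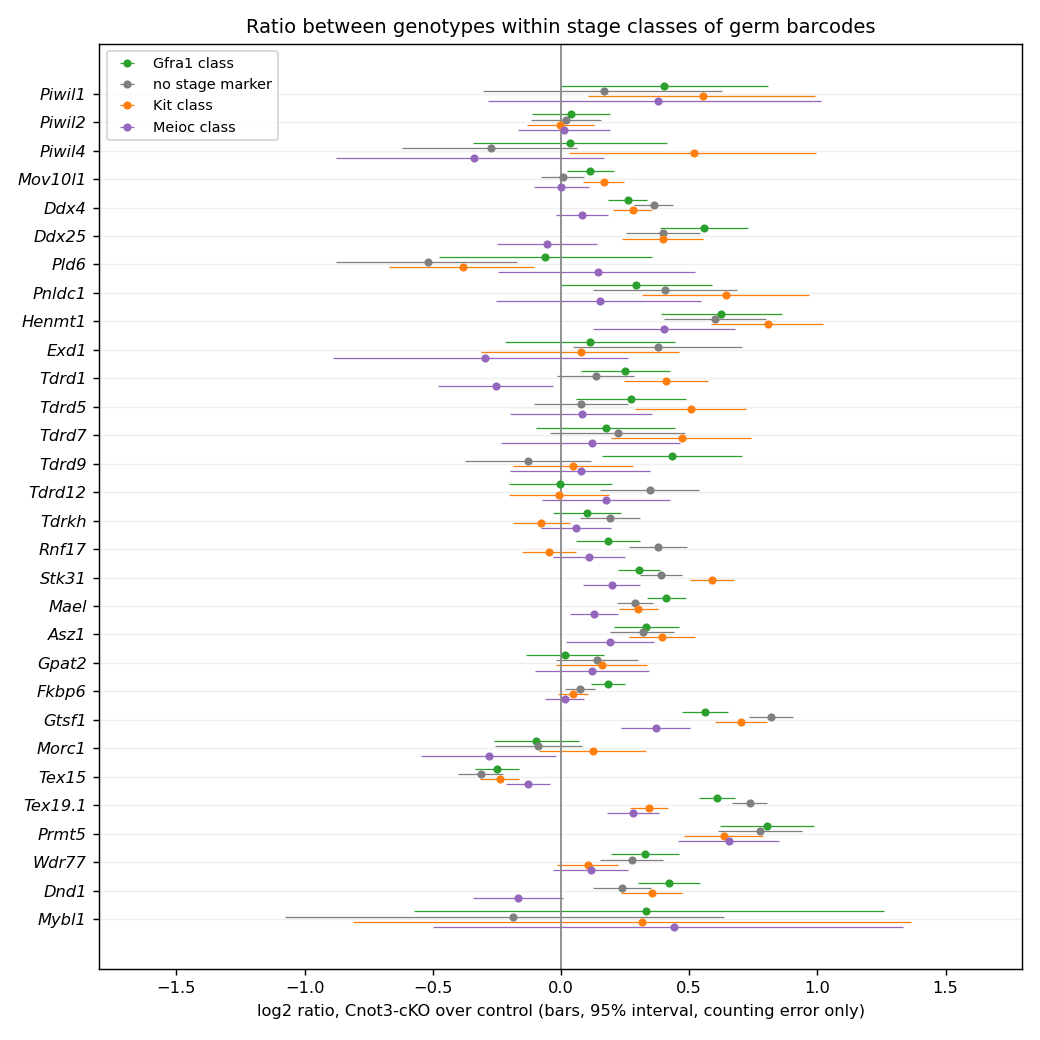
Log2 ratio of Cnot3-cKO over control in 4 stage classes of germ barcodes, 1 point per gene and class, with 95% intervals for counting error. *Prmt5* lies between 0.64 and 0.80 in the 4 classes, and *Tex15* is left of 0 in each.

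Markers of other cells were present in germ barcodes. The 9 Sertoli markers summed to 90.3 CPM in the control matrix and 113 in the other, and the 6 stromal markers to 581 and 480, with all genes of both lists detected. The 5 macrophage markers gave 24.7 and 2.27. In the *Gfra1* class, Sertoli markers were at 59.98 and 113 and stromal markers at 428 and 626. In the *Kit* class, Sertoli markers were at 90.2 and 96.0, stromal markers at 496 and 498, and macrophage markers at 48.5 in control and 2.11 in Cnot3-cKO. Their part in the ratios was not tested. In the germ barcodes with the lowest somatic marker share, *Tex19.1* gave 0.48, short of 1.5-fold, as it also was with size factors.

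The stage classes show how these genes are arranged along early spermatogonial development. In control, the *Kit* class over the *Gfra1* class gave a member median of -0.25 on the log2 scale, against 0.11 for all 10662 genes tested. At 1.5-fold, 8 of 29 genes were lower in the *Kit* class (background 12.9%), namely *Exd1*, *Gpat2*, *Gtsf1*, *Morc1*, *Piwil1*, *Piwil4*, *Pnldc1* and *Stk31*, and 1 was higher, *Pld6* (background 17.0%). Among other genes at least 4-fold higher in germ than in Sertoli barcodes, 24.4% were lower and 24.4% higher, beside 32.0% and 0 of the 25 members. In Cnot3-cKO, 6 of 29 were lower (background 9.46%), namely *Exd1*, *Gpat2*, *Gtsf1*, *Morc1*, *Piwil4* and *Tex19.1*, and *Pld6* was again higher (background 10.3%), with a median of -0.18 against 0.04. Of the other germ-enriched genes there, 21.6% were lower and 14.2% higher, beside 24.0% and 0 of the 25 members. These Cnot3-cKO calls depended on the stage rule and the filters. Where 1 UMI of a marker sufficed, 0 of 29 were lower and 0 higher (background 4.23% and 5.66%). Without Scrublet doublets, 3 were lower (9.64%). Other stage rules gave more. With 3 or more marker UMIs, 9 of 29 were lower (12.5%). The same 9 were lower with exactly 1 stage marker (13.6%) and with stages from barcodes thinned to 10000 UMIs (12.3%). They were the 6 above with *Piwil1*, *Pnldc1* and *Stk31*. With the filters stated in the study, which bound UMIs and genes on both sides and left 20 members past the minimum, 4 were lower (background 11.2%) and 0 higher (20.7%) in control and the median was -0.050.

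*Piwil4* was lowest in the *Kit* class of control, at 6.10 CPM against 14.4 in the *Gfra1* class, a ratio of -1.24 (-1.63 to -0.85). In Cnot3-cKO it was at 8.75 against 14.8 (-0.76, -1.23 to -0.29). *Morc1* was at 37.8 against 76.5 in control (-1.02) and 41.2 against 71.6 in Cnot3-cKO (-0.80). *Gtsf1* was at 121 against 207 (-0.77) and 198 against 306 (-0.63). For these 3 genes the class with the lower level was the same in both matrices.

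*Pld6* was at 26.97 in the *Kit* class against 12.4 in the *Gfra1* class of control (1.13, 0.81 to 1.45) and at 20.7 against 11.8 in Cnot3-cKO (0.80, 0.42 to 1.19). *Rnf17* and *Tdrkh* also leaned toward the *Kit* class, with 0.40 each in control and 0.17 and 0.22 in Cnot3-cKO. *Tex19.1* gave -0.34 in control and -0.61 in Cnot3-cKO. Over the 29 genes, 18 were below 0 in both matrices, 8 were above 0 in both, and 3 differed in sign. The same count was not made over all genes, so it cannot be read as a trait of the members.

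**Figure D4:**
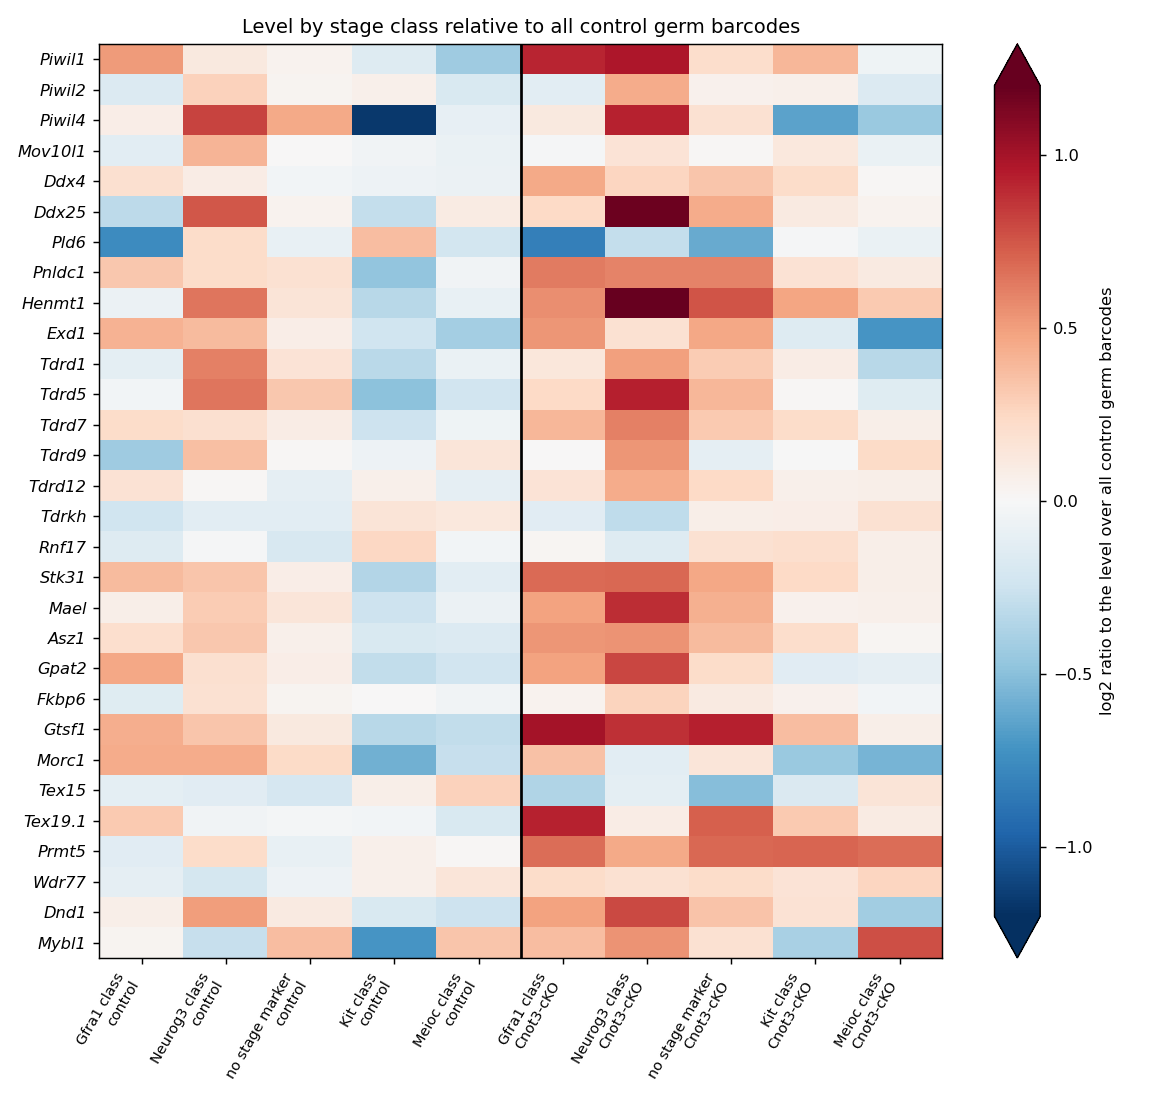
Level in each stage class relative to all control germ barcodes, as log2 ratio (color), for 30 genes in both matrices. *Pld6* is low in both *Gfra1* columns, *Piwil4* is low in both *Kit* columns, and the *Neurog3* column of Cnot3-cKO rests on 10 barcodes.

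**Figure D5:**
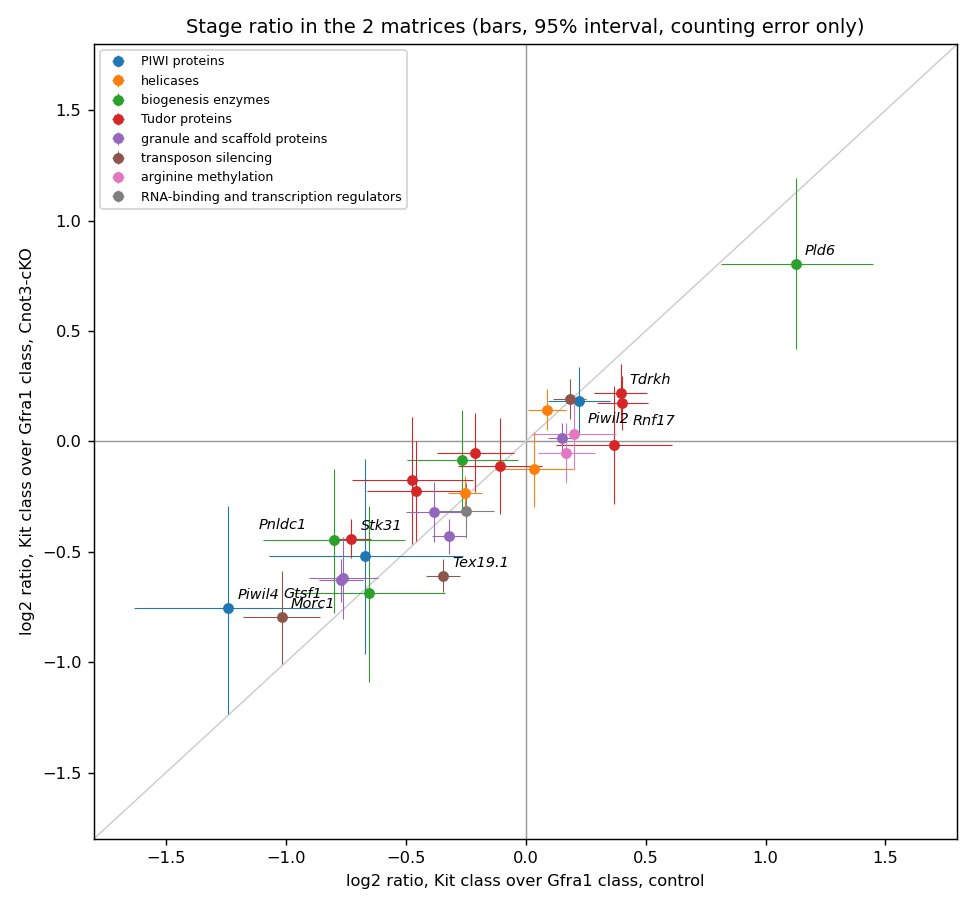
Log2 ratio of the *Kit* class over the *Gfra1* class in control (horizontal) and Cnot3-cKO (vertical) for 29 genes, with 95% intervals for counting error and the line of equal values. *Pld6* lies at 1.13 and 0.80, and *Piwil4* at -1.24 and -0.76.

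Most members were higher in germ than in Sertoli barcodes. Compared with Sertoli barcodes (called barcodes without *Dazl* and rich in Sertoli markers, 2461 in control and 4067 in Cnot3-cKO), 25 of 30 were at least 4-fold higher in germ barcodes in each matrix, where the background was 16.4% of genes in control and 14.2% in Cnot3-cKO. *Ddx4* was at 273 CPM in germ and 2.84 in Sertoli barcodes of control, while empty barcodes, of at most 100 UMIs, stood at 83.6 in both matrices. For 15 of the 31 genes the Sertoli level was under 5% of the level in empty barcodes in each matrix.

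Some members were also read from somatic barcodes. *Prmt5* was at 24.6 and 24.9 in Sertoli and 24.4 and 23.1 in interstitial barcodes of control and Cnot3-cKO. *Wdr77* was at 32.6 in Sertoli barcodes of both. *Tdrd7* was at 8.70 and 9.11 in Sertoli barcodes and *Tdrd5* at 18.6 and 19.0 in interstitial ones. *Tdrd5*, among the genes called higher in germ than in Sertoli barcodes, was at 41.2 and 47.1 in germ barcodes. Interstitial barcodes were not part of that call. The *Prmt5* level of the Cnot3-cKO Sertoli and interstitial barcodes was thus close to that of control. Between genotypes, 0 of 17 members past the minimum were higher by 1.5-fold in Sertoli barcodes (background 1.1%), and 1 was lower (1.0%), *Mael*, at 2.93 and 1.22 CPM. In interstitial barcodes 0 of 17 were higher (1.1%) and 3 lower (0.794%), *Tdrkh* (4.35 and 2.80), *Rnf17* (2.21 and 1.47) and *Tex19.1* (2.29 and 1.52). Empty barcodes held between 24.7 and 83.4 CPM of these 4 genes. The median log2 ratio of the 17 members was -0.44 in interstitial barcodes, against -0.01 for all genes tested. In Sertoli barcodes it was -0.05, against 0.04. The source of the interstitial shift was not tested.

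*Fkbp6* and *Pld6* were higher in Sertoli than in interstitial barcodes. *Fkbp6* was at 45.4 and 47.2 against 5.72 and 4.34, and *Pld6* at 6.22 and 6.19 against 0.62 and 0.65. With each barcode thinned to 10000 UMIs, *Fkbp6* was detected in 35.0% of control Sertoli barcodes (33.0 to 37.1) and 97.6% of germ barcodes, and *Ddx4* in 2.65% and 90.5%. Before thinning, Sertoli barcodes had a median of 13251 UMIs and *Fkbp6* was detected in 43.7% of them.

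*Mybl1* ran the other way. It was at 14.7 (13.5 to 16.1) in Sertoli and 2.37 (1.98 to 2.80) in germ barcodes of control, and at 16.0 and 2.81 in Cnot3-cKO. Empty barcodes held 5.65 and 10.3. After thinning, 11.2% of control Sertoli barcodes had a UMI of it (9.91 to 12.6) and 1.98% of germ barcodes (1.29 to 2.88).

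Levels also varied among germ barcodes. After thinning, the variance of UMIs over their mean, which is near 1 for counting noise alone, was 2.37 in control and 3.03 in Cnot3-cKO for *Tex15*, and 1.59 and 2.21 for *Tex19.1*. *Gtsf1* gave 1.40 and 1.78 and was detected in 71.7% (69.1 to 74.1) and 82.2% (78.7 to 85.3) of germ barcodes, against 0.99% and 0.88% of Sertoli barcodes. *Tex15* was detected in 88.4% and 81.5%.

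A further 30 genes of the pathway, its granules and the PRMT5 complex were read as a list. Of the 29 past the minimum, 2 were at least 1.5-fold higher in Cnot3-cKO germ barcodes, where the background was 6.53% of genes, and 1 lower, where it was 3.34%, with a median of -0.01. Both counts are near the background. *Tdrd3*, a Tudor protein, was at 9.25 and 16.6 CPM (0.84, 0.65 to 1.03). *Ddx20*, a helicase of the SMN complex, was at 65.1 and 104 (0.68, 0.61 to 0.75). *Nanos3*, an RNA-binding protein of early germ cells, was at 44.0 and 27.5 (-0.68, -0.80 to -0.56). The most abundant of the list were *Hsp90aa1*, at 2271 and 2750, and the Sm proteins *Snrpb*, at 638 and 634, and *Snrpd1*, at 310 and 354.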

How the data were processed

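Raw UMI counts per gene and barcode, deposited by the authors, were made with Cell Ranger 3.0.1 on build mm10 with an Ensembl annotation. Each matrix merges the samples of a genotype and lists uncalled barcodes. The sources used here give no aligner settings.

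Cell Ranger's order-of-magnitude threshold, set for 3000 expected cells, was used to call barcodes, 8341 in control and 9336 in Cnot3-cKO, with 18 sequences shared. Barcodes over 20% mitochondrial UMIs were left out. Doublets called by Scrublet in scanpy 1.11.5 (499 and 454) stayed in the main values. Stage classes needed 2 UMIs of a marker, taken later stage first. Sertoli and interstitial barcodes had 0 *Dazl* UMIs and at least 10 UMIs of their markers, 2 times the next list. Free RNA was read from barcodes of at most 100 UMIs. From Sertoli markers, it was estimated at 2.63% of UMIs in germ barcodes of control and 2.55% in those of Cnot3-cKO. Germ barcodes with at least 10 Sertoli marker UMIs (105 and 56) were left out of the estimate, a cut that can lower it.

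Levels carry exact Poisson intervals, ratios exact conditional binomial intervals and shares Clopper-Pearson intervals, from scipy 1.17.1. UMIs of a droplet are not replicates. The ratio step was tested on simulated data. Gene positions were matched to GENCODE M21 for all 31 genes. The E-box stretch of 1 carrier is not reported here. Named are all members, the Cnot3 and stage markers, and of the other list those past 1.5-fold and the 3 most abundant. Members and lists were chosen with earlier results of these data known. Alternatives were other barcode filters, scalings, minimums, doublet and free RNA treatments and stage rules.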

Additional observations from a re-analysis of the deposited data

How the results depend on the processing

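With 1 merged matrix per genotype, precision beyond counting error is unknown. No paired analysis was possible because the samples of a genotype cannot be separated, and none could be left out. No member median and no called member ratio changed sign under the 15 alternative settings that could be run for it. The members lower by 1.5-fold in Cnot3-cKO germ barcodes stayed at 0. Medians of all genes did change sign, as between genotypes in germ barcodes, from 0.02 to -0.02 with a mitochondrial limit of 10%. With that limit, the member median between genotypes was 0.31. There 2 of 28 members were higher in the *Kit* than in the *Gfra1* class of control (background 18.0%). With the filters stated in the study, the median of the *Kit* over *Gfra1* ratio in control was -0.050. Of 20 members, 0 were higher (background 20.7%) and 4 lower (11.2%). In the unmarked class, the only one left to weight, 5 of 21 members were higher in Cnot3-cKO (8.52%) and 1 lower (5.63%), *Morc1*. Subtracting the empty-barcode profile gave a germ over Sertoli median of 7.15, against 6.13. In control, size factors gave a *Kit* over *Gfra1* median of -0.36. That scaling takes the all-gene median, 0.11 in the main values, from every ratio. A stage marker at 1 or more UMIs gave -0.17 there, with 5 of 29 members lower (background 10.1%). The cause of the other shifts was not tested.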
